A study of Mus musculus with 14 samples.

Results

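The genes described here make cholesterol and fatty acids or control how much of both a cell makes: 32 genes, chosen by symbol as sterol pathway enzymes, regulators of the SREBP transcription factors and lipogenic enzymes, among the 24346 rows of the count table. All 32 had 1 row each. They fall into 4 roles, namely 7 genes of the mevalonate arm, 11 of the squalene and sterol arm, 5 for regulation and sterol transport, and 9 for fatty acid synthesis and desaturation. The cells were MC3T3-E1, an osteoblast precursor line from the mouse, sequenced as controls (title code NC) and with MACF1 knockdown (title code sh). Macf1 codes for a cytoskeletal crosslinker that bridges microtubules and actin. Each condition had 2 biological replicates at days 0, 3 and 5 and 1 library at day 10, which makes 14 libraries in 8 groups. The origin of the day count, the medium and the clonality of the knockdown cells were not given in the sources used here.

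In the mevalonate arm, acetyl-CoA is built up into isoprene units, which the next enzymes join into squalene and close into the sterol ring. The transcription factors SREBP-1 and SREBP-2, the products of Srebf1 and Srebf2, are made as precursors in the membrane of the endoplasmic reticulum, where the Insig proteins hold them while sterols are plentiful. When sterols run low, Scap carries the precursors to the Golgi, proteases release them, and they switch on the genes of both pathways, often together with NF-Y, which binds CCAAT, and Sp1, which binds GC boxes. In bone, the mevalonate pathway is best known as the target of the nitrogen-containing bisphosphonates, which block the Fdps enzyme in osteoclasts.

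In all, the libraries held 8044687 to 23301514 counts. Control day 3 replicate 2 stood apart from the rest. It had the fewest counts, 19.1% of them on ribosomal protein genes against 5.59% to 10.9% in the other 13 libraries, and its log2 CPM correlated with that of its replicate at 0.928, where the other 5 replicate pairs reached 0.993 or more. The counts of members that passed a test, in all and by role, are therefore given with this library and also without it. Macf1 did not pass as lower in the libraries labelled knockdown. Its level was 55.2 to 205 CPM in the 7 control libraries and 129 to 181 CPM in the 7 labelled knockdown (196 against 129 CPM at day 10). The lowest value, 55.2 CPM, was that of control day 3 replicate 2, and its replicate had 189 CPM. The labelled knockdown libraries had 157 and 163 CPM at day 0 (control 154 and 160), 172 and 170 CPM at day 3, and 169 and 181 CPM at day 5 (control 176 and 205). With control day 3 replicate 2 in the fit, the average difference of Macf1 was 0.13 on the log2 scale (SE 0.24, edgeR quasi-likelihood test, Benjamini-Hochberg adjusted p = 0.724). The groups are therefore named below by their labels. The osteoblast markers Runx2, Sp7, Alpl, Col1a1, Ibsp and Spp1 were all measured. With all libraries in the fit, 5 of the 6 rose from day 0 to day 5 in each condition. In labelled knockdown libraries the other 1, Spp1, went down, from 4209 and 3817 CPM (day 0) to 2253 and 2128 CPM (day 5). Adipocyte markers were near 0: 3 of 9 had no row, Adipoq, Cfd, Fabp4 and Pparg did not exceed 0.94 CPM in any library, and the summed level of the list was 5.14 to 9.94 CPM in control and 1.88 to 5 CPM in labelled knockdown libraries. The 4 macrophage markers summed to at most 1.18 CPM.

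Per kilobase of gene, Cyp51, which removes a methyl group from the first sterol of the pathway, was the most abundant member in control cells at day 0, at a mean of 303 RPKM (297 and 308). Scd2, a desaturase of fatty acids, followed at 215 RPKM, then Hmgcs1, which makes HMG-CoA, at 162 RPKM, and Msmo1, a C4 methyl oxidase of sterols, at 133 RPKM. These 4 did not overlap each other or any other member between the replicates. Sqle, squalene epoxidase, at 91.8 RPKM, the delta-5 desaturase Fads1 at 88.7 RPKM, the ATP citrate lyase Acly at 83.0 RPKM and the squalene synthase Fdft1 at 78.1 RPKM came next, and each overlapped its neighbour in this order. The regulators were lower per kilobase than the genes named so far, at 46.0 RPKM for Insig1, 30.1 for Srebf2, 11.1 for Insig2 and 7.44 for Srebf1. Other enzymes lay in the same range, such as Ebp at 43.9 RPKM, Fasn at 15.2 RPKM and Tm7sf2 at 9.32 RPKM. Fdps held 0 to 4 counts in every library and was the only member that did not pass the filter on low counts, so 31 members were tested. Of the exon bases of Fdps, 26.7% are shared with the gene model Gm43738 on the same strand, and how reads in such stretches were counted is not given in the sources used here. For the same reason Tm7sf2, which shares 12.1% of its exon bases with Vps51 on the same strand, and Fdft1 (18.3% shared with Ctsb), Hmgcs1 (12.1%, an antisense model) and Idi1 (9.2%) on the opposite strand, carry that uncertainty, as do the similar genes Scd1 and Scd2.

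In control cells the pathway as a whole went down after day 0 and stayed down. The 32 genes summed to 6845 and 6964 CPM (day 0), 4027 and 3306 CPM (day 3), 3755 and 3787 CPM (day 5) and 3631 CPM (day 10). Both replicates of day 0 lay far above every later library. By day 5, 18 of the 31 members tested had fallen and 0 had risen (edgeR quasi-likelihood test, adjusted p under 0.05), where 3.82% of all genes tested were called lower and 4.32% higher. The median member changed by -1.16 on the log2 scale, and the median of all genes tested by 0. In 28 of the 31, every library of day 5 was lower than every library of day 0, a pattern found in 31.9% of all genes, and Ebp and Insig2 showed the opposite one, found in 32.5%. The other member, Srebf1, overlapped. As these are bulk samples, fewer cells expressing a gene and less RNA per cell cannot be told apart.

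**Figure D1:**
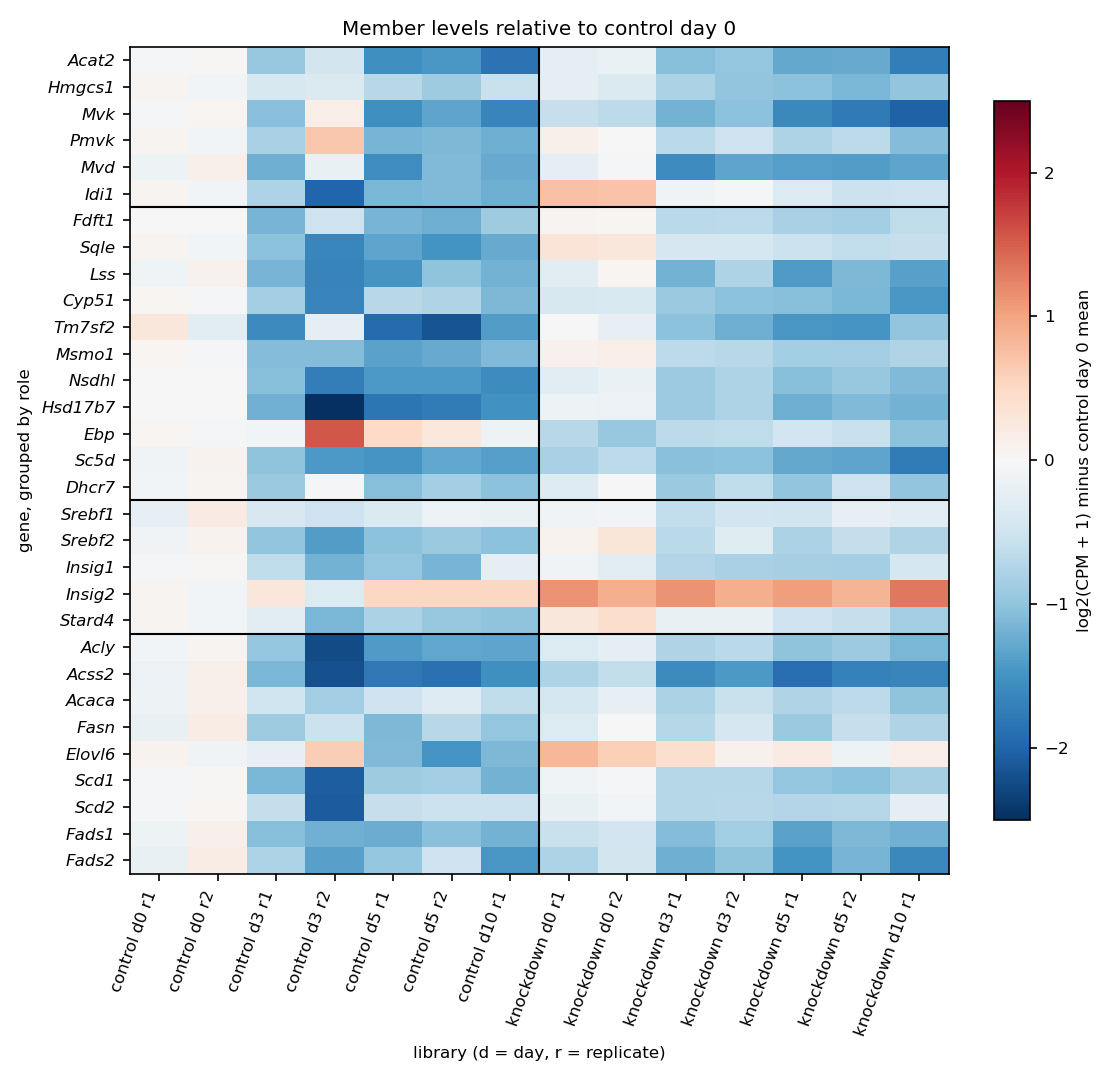
Level of each of the 31 tested members in each of the 14 libraries, as log2(CPM + 1) minus the mean of the 2 control libraries of day 0; blue is lower, red is higher, and horizontal lines part the 4 roles. Columns of days 3, 5 and 10 are mostly blue in both conditions, while Insig2 is red in every library labelled knockdown and control day 3 replicate 2 departs from its replicate in several genes.

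All 4 roles took part in the fall. In the mevalonate arm, 4 of the 6 tested members fell by day 5, with Acat2, a cytosolic acetyl-CoA acetyltransferase that starts the pathway, at -1.53 (SE 0.19, adjusted p = 0.00096), Mvk, mevalonate kinase, at -1.45, Mvd, which makes isopentenyl diphosphate, at -1.36 and Hmgcs1 at -0.79. In the squalene and sterol arm 8 of 11 fell. Tm7sf2, a sterol C14 reductase, had the lowest value, -2.36 (SE 0.43, adjusted p = 0.00883), and it was also the lowest of the tested members in counts, with 36 in its smallest library. Hsd17b7 and Nsdhl, which act in the removal of the C4 methyl groups, fell by 1.82 and 1.47, and the desaturase Sc5d and Sqle both by 1.41. Of the regulators, Insig1, itself a known SREBP target, fell by 1.07 and Srebf2 by 0.99. Among the fatty acid genes Acss2, an acetyl-CoA synthetase, fell by 1.91, Acly by 1.37, the elongase Elovl6 by 1.29 and Fads1 by 1.16. The call of Acly was lost in 13 alternative fits and that of Mvd in 9. Fasn, fatty acid synthase, at -0.91 and Acaca, acetyl-CoA carboxylase, at -0.42 did not pass. Fasn passed with the replicate block (-0.92, adjusted p = 0.00297), and both passed without control day 3 replicate 2 (-0.90, adjusted p = 0.00721, and -0.42, adjusted p = 0.0225). Without that library 6 of 6 mevalonate genes, 10 of 11 of the squalene and sterol arm, 3 of 5 regulators and transport genes and 9 of 9 fatty acid genes were called lower.

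The fall was already there at day 3. At that day 17 of 31 members were lower than at day 0 in control cells and 0 higher (5.45% and 5.29% of all genes), with a median of -0.89 against 0.037 for all genes, and 24 of 31 had every library of day 3 below those of day 0, as had 25.2% of all genes. Scd1, which desaturates stearate, fell by 1.53 and Lss, which closes the sterol ring, by 1.41. Control day 3 replicate 2 did not set the direction: without it 25 members passed as lower at day 3 (12.2% of all genes lower) and 28 at day 5 (14.5%), with medians at day 5 of -1.14. In the fit without it, Ebp and Insig2 passed as higher at day 5 (17% of all genes higher), at 0.40 and 0.54. The counts at day 5 also rested on the pairs compared. They were 7, 8, 5 and 7 without control day 0 replicate 1, day 0 replicate 2, day 5 replicate 1 and day 5 replicate 2 in turn, and 28 without control day 3 replicate 1. The counts at day 3 were 8 and 2 without control day 0 replicate 1 and replicate 2.

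**Figure D2:**
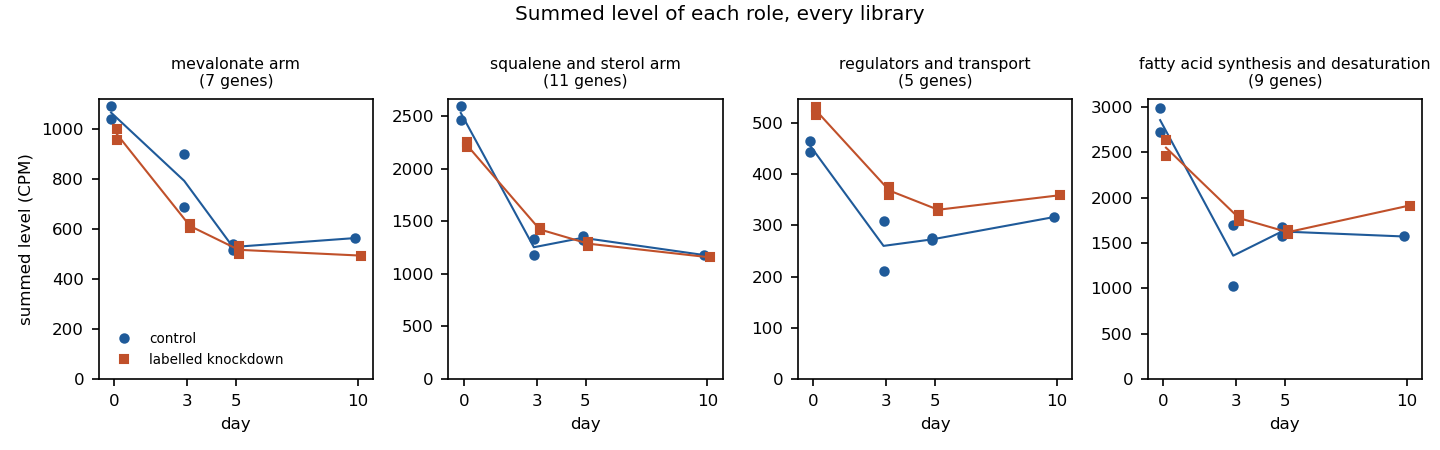
Summed level in CPM (vertical axis, from 0) of the genes of each role against day, with 1 point per library, circles for control and squares for labelled knockdown, and lines through the group means. In every panel the libraries of day 0 lie above those of days 3, 5 and 10 of the same condition.

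Levels in the libraries labelled knockdown also went down after day 0. The 32 genes summed to 6183 and 6379 CPM (day 0), 4156 and 4199 CPM (day 3), 3764 and 3744 CPM (day 5) and 3923 CPM (day 10). At day 5, 29 of 31 members lay below day 0 in every library, as did 28% of all genes, and Ebp alone lay above, as did 27.6%. The fit called 3 of these as lower, Acat2 at -1.09 (SE 0.19, edgeR adjusted p = 0.0163), Msmo1 at -0.99 (SE 0.15, adjusted p = 0.00909) and Hmgcs1 at -0.78 (SE 0.17, adjusted p = 0.0498), and 0 as higher, where 0.548% of all genes were called lower and 1.45% higher. The median member changed by -0.79 and the median of all genes by -0.0016. With the replicate number as a block 8 members were lower, without either control library of day 3 in turn 26 were, and without any 1 of the 4 libraries compared 0 were. Without control day 3 replicate 2, 7.56% of all genes were called lower at day 5. At day 3 only Msmo1 passed, at -0.81 (SE 0.15, adjusted p = 0.0331; 0.312% of all genes lower, 0.594% higher), 2 members passed with the replicate block and 23 without control day 3 replicate 2 (7.15% of all genes lower). Msmo1 was lost at day 3 when any 1 of the 10 libraries of days 0, 3 and 5 other than control day 3 was left out.

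Whether the 2 conditions fell by different amounts was tested on the difference itself. From day 0 to day 5 the median member changed by 0.31 more in labelled knockdown than in control cells on the log2 scale, which is a shallower fall, and the median of all genes by -0.023, but 0 of the 31 members passed in edgeR, 1 had an unadjusted p under 0.05, and 1.36% of all genes passed. The joint test of a difference that varied over days 0, 3 and 5 also called 0 members, with 3 at an unadjusted p under 0.05 and 0.998% of all genes. Both counts turned on control day 3: 7 members passed the first test without replicate 1 or without replicate 2 of that day. Without replicate 2, 10.1% of all genes passed it, and the members were Sc5d at 0.82, Hsd17b7 at 0.76, Acss2 at 0.74, Acly at 0.69, Nsdhl at 0.65 and Sqle at 0.50, with the shallower fall in labelled knockdown cells, and Insig2 at -0.61. The joint test called 5 members without replicate 2 (8.62% of all genes) and 24 without replicate 1.

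The promoters of the members are shown because so many of them went down together. RefSeq windows of GRCm38.p6, from 250 bases before a start to 50 after, were given for 25 of the 32 members. The letters TCACNCCA, the core of the sterol regulatory element, stood on either strand in 3 of these 25 genes (12%), Hmgcs1, Msmo1 and Srebf2, against 4.97% of 27025 genes. CCAAT stood in 21 of 25 (84%, against 41.1% of the 27025) and GGGCGG, a GC box, also in 21 (84%, against 38.2%). The 27025 are all genes with such windows, expressed here or not. The shares among the 13130 genes tested were not taken, so an excess over expressed genes is not shown. A match of letters is a description of the window and not a binding site. The 250 bases before the RefSeq start, the one nearest to the GENCODE start where there were several, follow for the 3 genes with the sterol element, and then for Insig2 and Ebp, the members that were higher at day 5 than at day 0 in every control library, 5′ to 3′ on the strand of the gene. Capitals mark TCACNCCA, and CCAAT or, where it lies on the opposite strand, ATTGG, and no capital base belongs to both.
Hmgcs1, chr13:119690101-119690350, plus strand: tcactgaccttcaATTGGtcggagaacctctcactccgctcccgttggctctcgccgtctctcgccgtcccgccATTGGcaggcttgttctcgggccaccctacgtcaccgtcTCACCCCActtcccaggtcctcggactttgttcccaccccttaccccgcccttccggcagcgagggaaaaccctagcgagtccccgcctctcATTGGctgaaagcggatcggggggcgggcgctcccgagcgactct
Msmo1, chr8:64733579-64733828, minus strand: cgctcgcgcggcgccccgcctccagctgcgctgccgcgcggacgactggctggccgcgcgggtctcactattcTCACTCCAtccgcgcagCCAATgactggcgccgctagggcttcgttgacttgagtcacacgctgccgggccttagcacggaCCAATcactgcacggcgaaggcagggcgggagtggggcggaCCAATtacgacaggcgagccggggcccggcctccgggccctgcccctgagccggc
Srebf2, chr15:82147019-82147268, plus strand: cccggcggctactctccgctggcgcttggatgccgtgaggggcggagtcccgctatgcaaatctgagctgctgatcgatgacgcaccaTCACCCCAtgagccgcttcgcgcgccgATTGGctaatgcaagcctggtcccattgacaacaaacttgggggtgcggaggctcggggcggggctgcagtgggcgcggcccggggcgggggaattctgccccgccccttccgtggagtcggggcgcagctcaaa
Insig2, chr1:121332590-121332839, minus strand: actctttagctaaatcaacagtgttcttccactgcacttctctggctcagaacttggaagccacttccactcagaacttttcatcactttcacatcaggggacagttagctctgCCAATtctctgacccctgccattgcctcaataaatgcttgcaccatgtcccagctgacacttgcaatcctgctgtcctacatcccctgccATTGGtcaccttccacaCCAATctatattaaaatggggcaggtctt
Ebp, chrX:8193513-8193762, minus strand: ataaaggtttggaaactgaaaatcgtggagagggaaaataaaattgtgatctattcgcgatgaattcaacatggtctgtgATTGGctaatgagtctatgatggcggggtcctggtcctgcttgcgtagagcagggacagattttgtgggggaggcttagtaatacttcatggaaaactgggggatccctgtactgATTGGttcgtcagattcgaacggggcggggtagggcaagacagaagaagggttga
In Hmgcs1 the element is TCACCCCA, 137 to 130 bases before the RefSeq start, in Msmo1 TCACTCCA, 177 to 170 bases before, and in Srebf2 TCACCCCA, 162 to 155 bases before. The RefSeq start of Msmo1 lies 214 bases downstream of its GENCODE start, so its element lies inside the gene as placed by GENCODE. Insig2 and Ebp hold no TCACNCCA in these bases, with 3 and 2 copies of CCAAT. This does not set them apart, as only 3 of the 25 members hold the element. Mvk, Nsdhl, Hsd17b7 and Acly, which fell by day 5 in control, hold none in their windows either.

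Between the conditions, single members of the pathway differed, in both directions. Averaged over days 0, 3 and 5, 6 members were higher in the libraries labelled knockdown and 3 lower, while 22 did not pass (edgeR quasi-likelihood test, adjusted p under 0.05). Of all genes tested 15% were called higher and 11.9% lower, so that the members' counts lay near this background. The median member differed by 0.051 and the median of all genes by -0.0032. Without control day 3 replicate 2, 10 members were higher and 8 lower, with 24.9% and 22.2% of all genes. Without control day 3 replicate 1 they were 12 and 7, and 1 member was lower without control day 0 replicate 1, control day 5 replicate 1 or replicate 2 of labelled knockdown at day 0, 3 or 5. Ribosomal protein genes took a smaller share of counts in the libraries labelled knockdown. It was 5.59% to 7.04% at days 0, 3 and 5, against 8.01% to 19.1% in control. Of the 6 osteoblast markers 3 were called lower, among them Alpl at -2.66 and Ibsp at -3.57, and 2 did not pass. The other 1, Spp1, was called higher at 0.60, a value that was 0.18 without day 3. The only adipocyte marker tested, Cebpa, differed by -1.36. The muscle marker Des differed by 1.85, with the muscle list at 1.03 to 4.26 CPM in control and 4.1 to 11.4 CPM in labelled knockdown libraries. The part of these shifts in the members' values was not tested.

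**Figure D3:**
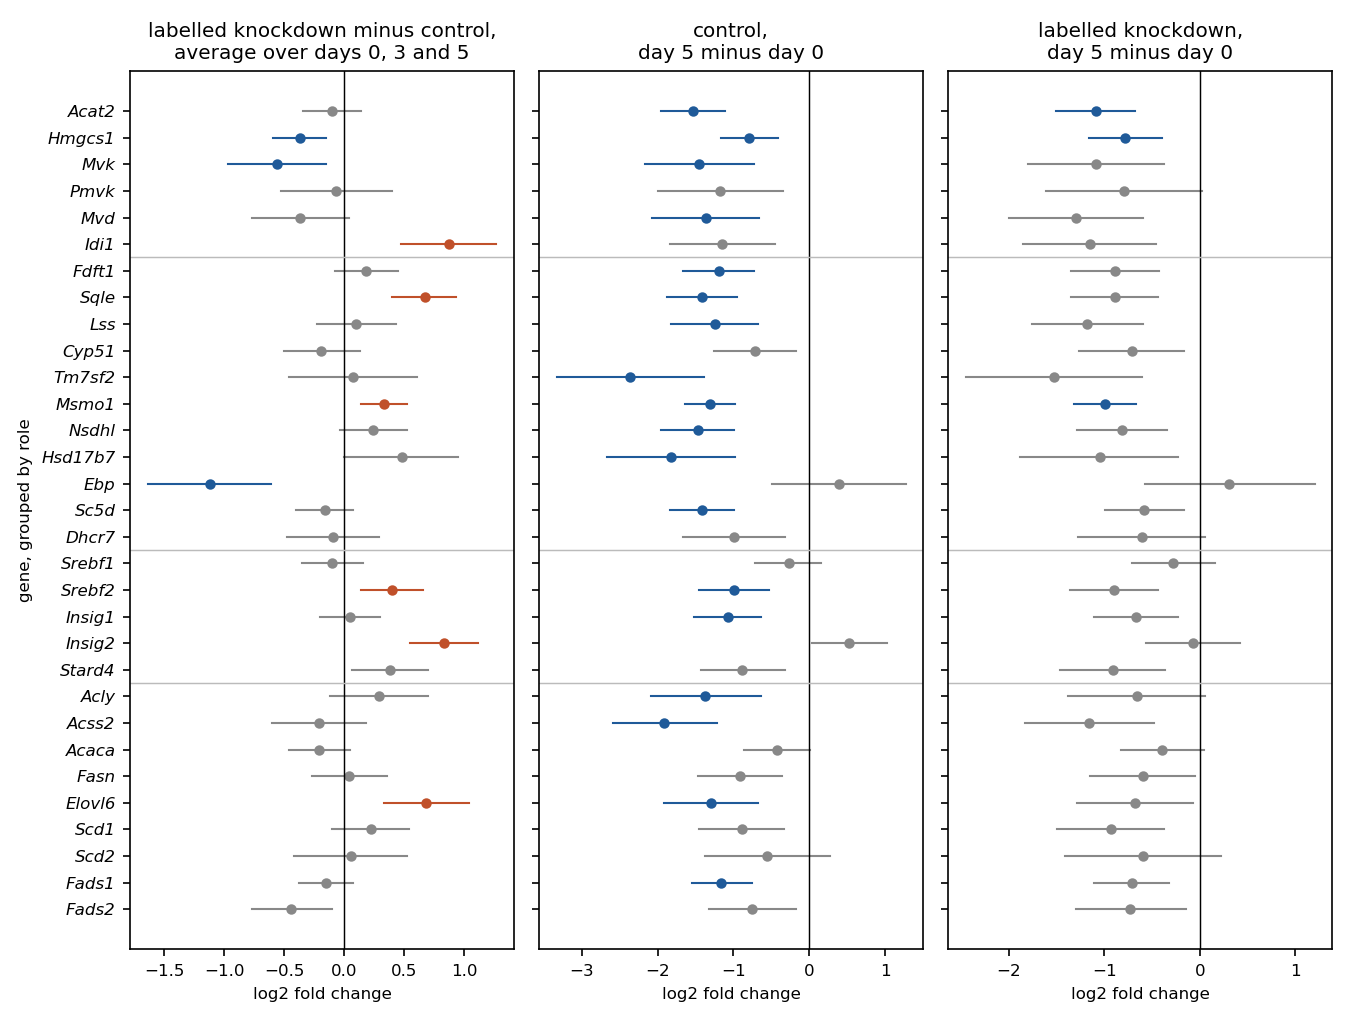
Log2 fold change of each tested member with its 95% interval from the edgeR fit, grouped by role: labelled knockdown minus control averaged over days 0, 3 and 5 (left), and day 5 minus day 0 in control (middle) and labelled knockdown (right). Orange marks members called higher, blue members called lower and grey members not called; the left panel has points on both sides of 0, while nearly all points of the other panels lie below 0.

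Of the 5 regulators and transport genes, 2 were higher in the libraries labelled knockdown in this average, and 3 without control day 3 replicate 2. Insig2 (chr1:121304353-121332589, GRCm38), which retains the SREBP precursors in the endoplasmic reticulum, was at 36.9 and 33.3 CPM (day 0), 43.1 and 27.3 CPM (day 3), 50.5 and 50.6 CPM (day 5) and 50.6 CPM (day 10) in the control libraries. Those labelled knockdown had 77.5 and 66.6 CPM (day 0), 77.4 and 66.4 CPM (day 3), 73.1 and 64.2 CPM (day 5) and 88.9 CPM (day 10). Every labelled knockdown library was above every control library of any day. The average difference was 0.83 (SE 0.13, edgeR quasi-likelihood test, Benjamini-Hochberg adjusted p = 0.00121), and it passed in all 22 alternatives tried. Day by day the difference was 1.04 at day 0 and 1.02 at day 3, calls that were lost in 8 and 2 alternatives, and 0.44 at day 5, where it did not pass. Srebf2 (chr15:82147181-82205379), which codes for the main activator of the sterol genes, was at 149.7 and 171 CPM (day 0), 80.1 and 60.2 CPM (day 3), 78.3 and 83.1 CPM (day 5) and 78.2 CPM (day 10) in control. It was at 171 and 198 CPM (day 0), 100.05 and 129 CPM (day 3), 92.1 and 106 CPM (day 5) and 94.1 CPM (day 10) in labelled knockdown libraries. At day 0 the groups overlapped, at days 3 and 5 both labelled knockdown libraries were higher, and the average difference was 0.40 (SE 0.12, edgeR adjusted p = 0.0314). The call was lost without any 1 of 9 libraries, all of those of days 0 and 5 and labelled knockdown day 3 replicate 2, and in 1 other alternative (adjusted p up to 0.109), and without day 3 the value was 0.25 (adjusted p = 0.0308). Insig1 (0.051), Srebf1 (-0.10) and the sterol carrier Stard4 (0.38) did not pass, although Stard4 was higher in both labelled knockdown libraries at each of the 3 days. Stard4 passed without control day 3 replicate 2 (0.26, adjusted p = 0.00529), where Insig1 had -0.034.

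In the mevalonate arm, 1 enzyme was higher and 2 were lower, and without control day 3 replicate 2 the counts were 2 and 2. Idi1 (chr13:8885501-8892451), which interconverts the isoprene units, was at 127 and 114 CPM (day 0), 70.3 and 29.8 CPM (day 3), 53.6 and 55.2 CPM (day 5) and 50.9 CPM (day 10) in control. It was at 199 and 197 CPM (day 0), 112 and 116 CPM (day 3), 95.1 and 82.9 CPM (day 5) and 83.5 CPM (day 10) in the libraries labelled knockdown. At each day the labelled knockdown libraries were the higher ones, by 0.87 on average (SE 0.18, edgeR adjusted p = 0.00633) and by 1.17 at day 3. The day 3 value was 0.69 without control day 3 replicate 2 and 1.93 without replicate 1. Hmgcs1 (chr13:119690379-119708260), one of the genes with a sterol element in the promoter printed above, was at 585 and 535 CPM (day 0), 422 and 434 CPM (day 3), 347 and 303 CPM (day 5) and 381 CPM (day 10) in control. It was at 471 and 435 CPM (day 0), 321 and 280.4 CPM (day 3), 275 and 253 CPM (day 5) and 281 CPM (day 10) in labelled knockdown libraries. It was lower in them at each day, by -0.37 on average (SE 0.10, edgeR adjusted p = 0.0189), a call lost in 9 of 22 alternatives (adjusted p up to 0.0868), among them the fits without control day 0 replicate 1, control day 5 replicate 1, or replicate 2 of labelled knockdown at day 0, 3 or 5. Mvk (chr5:114444269-114460591) was at 124 and 134 CPM (day 0), 61.8 and 145 CPM (day 3), 43.6 and 50.6 CPM (day 5) and 40.03 CPM (day 10) in control. It was at 85.8 and 81.2 CPM (day 0), 55.9 and 63.1 CPM (day 3), 41.5 and 37.00 CPM (day 5) and 30.9 CPM (day 10) in labelled knockdown libraries. The groups overlapped at day 3, and the average of -0.56 (SE 0.18, edgeR adjusted p = 0.047) did not pass with the replicate block (-0.54, adjusted p = 0.0516) or in 13 other alternatives, among them those without any 1 of the 10 libraries of days 0, 3 and 5 other than control day 3 (adjusted p up to 0.149). Mvk was highest in control day 3 replicate 2, and without that library the average was -0.32 (SE 0.068, adjusted p = 0.00252).

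In the squalene and sterol arm, 2 enzymes were higher and 1 was lower. The counts without control day 3 replicate 2 were 4 and 3, of 11, with Fdft1 (0.30) and Hsd17b7 (0.29) added as higher and Cyp51 (-0.31) and Sc5d (-0.23) as lower, where 24.9% and 22.2% of all genes were called. Sqle (chr15:59315077-59331192), the epoxidase at the first oxygen-requiring step, was at 284 and 258 CPM (day 0), 132 and 86.4 CPM (day 3), 108 and 95.9 CPM (day 5) and 112 CPM (day 10) in control. It was at 339 and 331 CPM (day 0), 201 and 199 CPM (day 3), 185 and 176 CPM (day 5) and 180.1 CPM (day 10) in the libraries labelled knockdown. Both replicates of each day were above those of control, by 0.67 on average (SE 0.12, edgeR adjusted p = 0.00267), 0.87 at day 3 and 0.82 at day 5. The calls of Sqle at days 3 and 5 were lost in 8 and 13 alternatives. Msmo1 (chr8:64718139-64733792) was at 299.6 and 281 CPM (day 0), 137 and 136 CPM (day 3), 114 and 120.1 CPM (day 5) and 134 CPM (day 10) in control. It was at 312 and 324 CPM (day 0), 183 and 179 CPM (day 3), 161 and 159 CPM (day 5) and 172 CPM (day 10) in labelled knockdown libraries. The groups did not overlap at any day, and the difference was small, 0.33 on average (SE 0.085, edgeR adjusted p = 0.0174), a call lost in 6 alternatives (adjusted p up to 0.0889), with no filter and without replicate 2 of control day 0, replicate 1 of control day 5, or labelled knockdown day 0 replicate 2, day 3 replicate 1 or day 5 replicate 1. Ebp (chrX:8185329-8193512), the sterol isomerase that moves a ring double bond, went the other way and was at 84.9 and 78.9 CPM (day 0), 78.3 and 243 CPM (day 3), 116 and 99.1 CPM (day 5) and 74.9 CPM (day 10) in control. It was at 49.96 and 41.9 CPM (day 0), 51.5 and 52.4 CPM (day 3), 58.6 and 55.5 CPM (day 5) and 39.7 CPM (day 10) in labelled knockdown libraries. Control day 3 replicate 2 was the highest by far, and all other control libraries were still above those labelled knockdown. The average difference was -1.12 (SE 0.23, edgeR adjusted p = 0.00607), and -0.78 without that library (SE 0.069, adjusted p = 3.28e-06). With all libraries in the fit, Ebp was the only member of this arm called lower, while Sqle and Msmo1 were called higher. Cyp51 and Sc5d, at -0.19 and -0.16, did not pass, and they had -0.31 and -0.23 without control day 3 replicate 2. An order along the pathway was not tested.

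Among the 9 fatty acid genes Elovl6 alone passed, as higher, with all libraries in the fit. Without control day 3 replicate 2, Acss2 (-0.36, adjusted p = 0.0067), Acaca (-0.27, adjusted p = 0.0121) and Fads2 (-0.53, adjusted p = 0.00352) also passed, as lower, and the median of the 9 turned from 0.044 to -0.14. Elovl6 (chr3:129532355-129638495), which elongates palmitate to stearate, was at 144 and 126 CPM (day 0), 117 and 207 CPM (day 3), 62.4 and 47.8 CPM (day 5) and 61.5 CPM (day 10) in control. It was at 241 and 205 CPM (day 0), 177 and 145 CPM (day 3), 155 and 123 CPM (day 5) and 152 CPM (day 10) in libraries labelled knockdown. The labelled knockdown libraries were the higher ones at days 0, 5 and 10, and at day 3 the value of control day 3 replicate 2 was the highest of the 4. The difference was 0.68 on average (SE 0.16, edgeR adjusted p = 0.0111) and 1.33 at day 5 (SE 0.28, adjusted p = 0.0171), and without day 3 the average was 1.03 (adjusted p = 4.58e-05). Idi1, Sqle, Ebp and Elovl6, like Insig2, kept the call in the average in all 22 alternatives. Fads2, the delta-6 desaturase, had -0.44 (95% interval -0.77 to -0.10, adjusted p = 0.0546) and Acly 0.29 (-0.12 to 0.70), and neither passed, though Fads2 did with the replicate block (-0.44, adjusted p = 0.0462). Scd1, Scd2 and Fasn had 0.22, 0.053 and 0.044 and did not pass. In the fit without control day 3 replicate 2, Acly had 0.12, Scd1 0.086, Scd2 -0.14 and Fasn 0.10, again not passing.

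**Figure D4:**
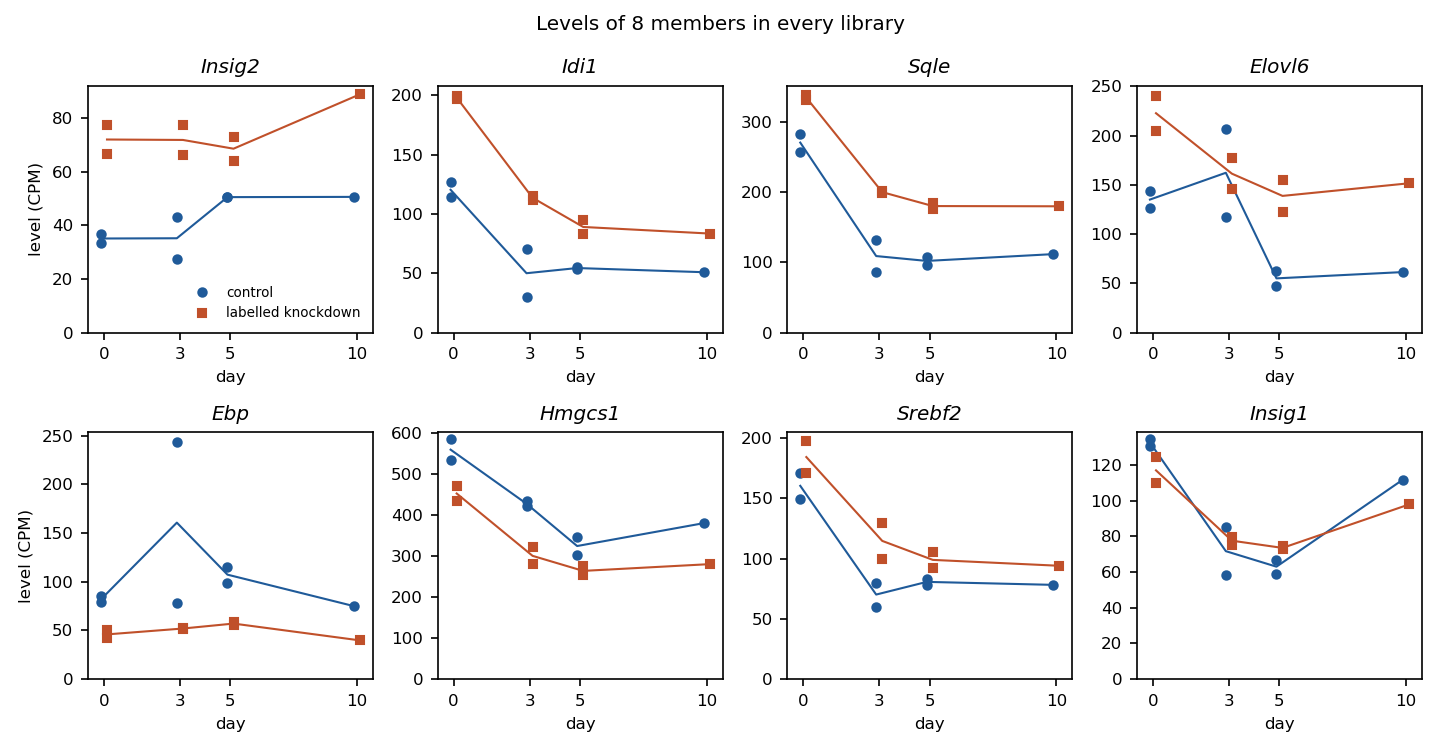
Level in CPM (vertical axes, from 0) against day of 8 members, with 1 point per library, circles for control and squares for labelled knockdown, and lines through the group means. Insig2, Idi1 and Sqle lie higher and Ebp and Hmgcs1 lower in labelled knockdown libraries at each day, Elovl6 lies higher at days 0, 5 and 10, and Insig1 meets between the conditions.

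Taken day by day, fewer members passed, and the members leaned to different sides of 0. At day 0, 22 of the 31 were below 0, with a median of -0.15 (all genes 47.5% below 0, median 0.028). At day 3, 12 were below 0, with a median of 0.15 (all genes 49.6%, 0.0074), and at day 5 again 12, with a median of 0.22 (all genes 49.5%, 0.0068). Both labelled knockdown libraries lay below both control libraries in 16 members at day 0 (29.9% of all genes) and above in 7 (33.8%), while at day 5 they lay below in 8 (31.5%) and above in 15 (33%). As to tests, at day 0 Insig2 was higher and Sc5d was lower (-0.74, SE 0.19, edgeR adjusted p = 0.0394), with 4.41% of all genes called higher and 2.68% lower. The call of Sc5d was lost in 14 alternatives. At day 3 Idi1, Sqle and Insig2 were higher and Ebp lower (-1.62, SE 0.40, edgeR adjusted p = 0.0317), with 7.06% and 5.52% of all genes. The day 3 calls of Idi1 and Ebp were lost in 11 and 13 alternatives. Ebp had its highest level in control day 3 replicate 2, and without that library its day 3 value was -0.59 (SE 0.13, adjusted p = 0.00921). With the replicate block Srebf2 was added at day 3 as higher (0.69, adjusted p = 0.0494) and Hmgcs1 as lower (-0.51, adjusted p = 0.0391). At day 5 Sqle and Elovl6 were higher and 0 members lower, with 5.32% and 2.47% of all genes. Without control day 3 replicate 2, 5 members were higher and 8 lower at day 0 (15.8% and 12.9% of all genes), 7 and 2 at day 3 (11.9% and 9.18%) and 11 and 3 at day 5 (16.6% and 14.9%). Leaving out any 1 of the 12 libraries of days 0, 3 and 5 moved at least one of these counts by over 1.5 times, and they ranged from 0 to 16 higher and 0 to 8 lower. At each of days 0, 3 and 5, every labelled knockdown library was above every control library in 5 members, Idi1, Insig2, Msmo1, Sqle and Stard4 (13.7% of all genes), and below in 2, Ebp and Hmgcs1 (9.55%).

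Pairs of related genes were compared within each library. Per kilobase, the ratio of Insig1 to Insig2 was 3.88 and 4.42 in the control libraries of day 0 and 1.45 and 1.28 at day 5, and in labelled knockdown libraries 1.76 and 1.81 at day 0 and 1.11 and 1.24 at day 5. The highest ratios were those of control cells at day 0. The ratio of Srebf2 to Srebf1 was 4.40 and 3.79 at day 0 and 2.60 and 2.34 at day 5 in control, and 4.65 and 5.31 and then 3.38 and 3.12 in labelled knockdown libraries. Over all 14 libraries the ratio of Scd2 to Scd1 was 3.52 to 5.86, and that of Fads1 to Fads2 1.10 to 2.13. These ratios are of single libraries and were not tested.

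At day 10 there was 1 library per condition and no test was made. Of the 31 members, 1 was more than 2-fold higher in the library labelled knockdown, Elovl6, by 1.29 in log2(CPM + 1) (61.5 against 152 CPM), and 0 were more than 2-fold lower, where 4.59% and 2.07% of all genes were. Insig2 differed by 0.80, Idi1 by 0.70 and Sqle by 0.68, all higher in labelled knockdown, while Ebp had -0.90 and Hmgcs1 -0.44. All of these had the direction of their average over the earlier days. From day 5 to day 10, 0 members moved more than 2-fold in control (2.35% of all genes higher, 2.68% lower) or in labelled knockdown (2.41% and 2.47%), with medians of 0.0026 and -0.014. The extremes in control were Fads2 at -0.74 and Insig1 at 0.82, and in labelled knockdown Ebp at -0.51 and Scd2 at 0.49.

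Genes of neighbouring pathways did not all follow the members. Of the 3 genes that process SREBP precursors, Scap, Mbtps1 and Mbtps2, 0 were called between conditions or from day 0 to day 5 in either condition. From day 0 to day 5 in control, 3 of 20 tested other lipogenic genes fell, the elongase Elovl7 at -1.68, the mitochondrial citrate carrier Slc25a1 at -1.12 and Aacs, which activates acetoacetate, at -0.88, and 0 rose, with a list median of -0.39. In the isoprenoid, sterol efflux and fatty acid oxidation lists 0 genes were called in that comparison (4.32% of all genes higher, 3.82% lower). Their list medians were 0.031, 0.085 and -0.31, and that of the SREBP processing genes was also -0.31, with 0 for all genes. When control day 3 replicate 2 was left out (17% and 14.5% of all genes), 1 of the other lipogenic genes rose and 9 fell, 1 isoprenoid gene rose, 2 efflux genes rose and 3 fell, and 1 oxidation gene rose and 3 fell. Between conditions, 3 of 9 tested genes of sterol efflux, esterification and oxysterols were lower in libraries labelled knockdown, namely the cholesterol exporter Abca1 at -1.45, the lipoprotein receptor Scarb1 at -0.62 and the lysosomal sterol carrier Npc2 at -0.60, and 0 were higher, with a median of -0.60. Abca1 was at 1.62 to 3.60 CPM in control and 0.303 to 1.56 CPM in labelled knockdown libraries of days 0, 3 and 5. Of 10 fatty acid oxidation genes, 4 were higher, led by Cpt1a, which admits fatty acids to mitochondria, at 1.13 and the dehydrogenase Acadm at 0.84, and 2 lower, Hadha at -0.36 and Hadhb at -0.39. Of the 20 other lipogenic genes 1 was higher, Elovl7 at 2.04, and 0 were lower, and 1 of 6 isoprenoid genes was higher and 1 lower, where 15% of all genes were called higher and 11.9% lower. Elovl7 did not exceed 11.6 CPM in any library, and limma on log2(RPKM + 1) gave it 0.67 in the average and -0.39 from day 0 to day 5 in control, the latter not passing. When control day 3 replicate 2 was left out (24.9% and 22.2% of all genes), 3 other lipogenic genes were higher and 5 lower, 1 isoprenoid gene higher and 2 lower, 1 efflux gene higher and 5 lower, with Npc2 at -0.40, and 5 oxidation genes higher and 3 lower. With all libraries in the fit, 0 of the 5 proliferation markers were called between conditions, and the list median in the average was -0.058. Without control day 3 replicate 2 this median was -0.12, and some of the markers were called lower. From day 0 to day 5 in control, with all libraries, 1 was called higher and 0 lower, with a list median of 0.25. Without control day 3 replicate 2 the median was 0.26, and there were calls in both directions. Mki67 had 0.94 there, while Mcm5 went from 53.4 and 61.1 CPM to 37.9 and 41.9 CPM.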

How the data were processed

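RNA of 14 MC3T3-E1 libraries was sequenced. Per the labels' protocols, polyadenylated RNA, treated with DNase, was made into directional libraries. The submitters' processing notes name GRCm38 with TopHat2, bcl2fastq and edgeR. The counter, its strand setting and the annotation were not given in the sources used here. Raw counts per gene were deposited by the authors, and so were RPKM values, which matched counts divided by gene-wise and library-wise constants to within 0.549% in 9258 genes.

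Genes needed 10 or more counts in 2 or more libraries, which 13130 met and 11216 did not. In edgeR 4.0.16 (R 4.3.3), a mean for each of 8 groups was fitted to all 14 libraries with TMM scaling and a robust quasi-likelihood F test, with 6 residual degrees of freedom. The Benjamini-Hochberg adjustment ran over the whole table, with a threshold of 0.05. CPM are edgeR's counts relative to the scaled library size. Comparisons used days 0, 3 and 5, and day 10 was described by log2(CPM + 1). Alternatives were other size factors, no filter, DESeq2 1.42.0, limma 3.58.1 on log2(RPKM + 1) or log2(RPKM + 0.1), a replicate block, each library left out, and no day 3. Members with a call in the average over days got a value in every library, and of the other lists up to 4 called genes were named. Members and lists were chosen with earlier results of these data known.

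Same-numbered replicates of the 2 conditions deviated together, with correlations of 0.392, 0.163 and 0.389 at days 0, 3 and 5. These lay within the range between different days, 0.0221 to 0.462, so they do not show a pairing particular to a day. As each exceeded 0.1, the replicate number was tried as a block in an alternative fit. The main fit did not use it. Replicate pairs differed by more than counting noise (chi-square of 12.7 to 38.3 per degree of freedom in 5 pairs and 175 in control day 3), so none were merged. Gene positions and exon overlaps come from GENCODE release 21 (GRCm38), matched for 24181 gene identifiers, and promoters from RefSeq (GRCm38.p6). The fit was tested on simulated counts.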

Additional observations from a re-analysis of the deposited data

How the results depend on the processing

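Most counts of members that passed changed when control day 3 was left out, and the dispersion common to all genes was 0.0474 with all libraries and 0.0115 without control day 3 replicate 2. Without day 3, the average gave 10 higher and 9 lower, day 0 5 higher and 8 lower, day 5 11 higher and 3 lower, control day 5 against day 0 2 higher and 28 lower, labelled knockdown day 5 against day 0 27 lower, and the interaction 7. The 3 limma fits on RPKM gave 1 lower in the average, 0 higher and 0 lower at day 0, 0 lower at day 3, 1 higher at day 5 and 0 lower in labelled knockdown day 3 against day 0, and at day 3 limma gave 6 higher with a pseudocount of 1 and 5 with 0.1. Without its filter it gave 11 lower in control day 3 against day 0. With no filter on low counts, day 3 gave 7 higher and 2 lower, day 5 1 lower, control day 3 against day 0 1 higher, and labelled knockdown 2 lower at day 3 and 14 at day 5. DESeq2 gave 2 lower at day 0, 6 higher and 3 lower at day 3, and 8 and 17 lower in labelled knockdown at days 3 and 5, where DESeq2 size factors in edgeR gave 5 at day 5. The replicate block gave 2 lower at day 3 between conditions, and 2 and 8 lower in labelled knockdown at days 3 and 5; it ended 1 call, that of Mvk in the average, and added 15.

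With 1 library left out, the average gave 4 to 12 higher and 1 to 8 lower, day 0 0 to 5 and 0 to 8, day 3 0 to 16 and 0 to 8, day 5 0 to 11 and 0 to 3, control day 3 against day 0 0 to 3 and 2 to 25, control day 5 0 to 2 and 5 to 28, labelled knockdown day 3 0 to 0 and 0 to 23, labelled knockdown day 5 0 to 0 and 0 to 26, the interaction 0 to 7 and the joint test 0 to 24. A group left with 1 library was assumed to vary like the others. Of 170 member values, those that passed with all libraries or without control day 3 replicate 2, the direction turned in 5. Pmvk went from -0.07 in the average to 0.09 in each limma fit and 0.26 without day 3, with -0.26 to 0.24 when 1 library was left out, and from 0.11 in control day 3 against day 0 to -0.23, -0.24 and -0.23 in limma, with -0.80 to 0.68 when 1 library was left out. With 1 library left out, Acss2 had -0.36 to 0.02 in the average, Fdft1 -0.15 to 0.51 at day 3 and Mvk -1.04 to 0.17 in control day 3 against day 0. Those causes were not tested. With 2 libraries per group and 1 at day 10, small differences could not be resolved, and members that did not pass are not shown to be alike.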
